A study of Mus musculus with 12 samples.

Results

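Foxp3 and the 5 Ikaros family genes (Ikzf1 to Ikzf5) were followed across 12 tumours of AB1-HA, a mouse mesothelioma cell line made to express influenza haemagglutinin, which serves as a tumour antigen. The 6 genes were taken by name from a table of 35999 genes, with earlier results of these data known. All 6 had enough counts to be tested. The tumours grew under the skin of male BALB/c mice aged 8 to 10 weeks. One group of 6 received PBS, the vehicle, and the other group of 6 received 100 µg of an anti-CD4 monoclonal antibody. Both were given on days -3, 0 and 7 relative to inoculation, and tumours were taken on day 9. The labels do not link tumours to individual mice, so p-values measure the spread between these tumours, and the antibody clone is not named in the sources used.

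Foxp3 is the forkhead transcription factor that sets the identity of regulatory T cells, most of which carry CD4. The Ikaros family are zinc finger proteins of lymphocytes that bind DNA through fingers near the start of the protein and pair with each other through fingers at its end. Ikzf1 encodes Ikaros, made in nearly all leukocytes, and Ikzf3 encodes Aiolos, made in T, B and natural killer cells. Ikzf2 encodes Helios and Ikzf4 encodes Eos, which are known for their high level in regulatory T cells, where Eos binds Foxp3 as a corepressor. Ikzf5 encodes Pegasus, the most divergent member, which is made in many tissues.

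The likeness of the family within the DNA-binding part is shown because it bears on how far reads of the members can be told apart. For each Ikaros gene, 1 finger of 23 residues is printed as 69 coding bases of GENCODE M21 transcripts, residues 165 to 187 of Ikzf1 and the finger of each other gene with most residues identical to it. Sequences are given 5′ to 3′, and capitals mark the 25 bases that all 5 genes share.
Ikzf1: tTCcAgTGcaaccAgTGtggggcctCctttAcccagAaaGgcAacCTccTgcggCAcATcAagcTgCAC
Ikzf2: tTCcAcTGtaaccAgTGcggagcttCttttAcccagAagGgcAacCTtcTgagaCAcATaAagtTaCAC
Ikzf3: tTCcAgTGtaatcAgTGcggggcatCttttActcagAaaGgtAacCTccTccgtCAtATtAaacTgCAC
Ikzf4: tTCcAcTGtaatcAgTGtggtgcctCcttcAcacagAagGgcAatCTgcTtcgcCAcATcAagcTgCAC
Ikzf5: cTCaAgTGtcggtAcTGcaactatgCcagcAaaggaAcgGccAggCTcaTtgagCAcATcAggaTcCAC
The Ikzf2, Ikzf3 and Ikzf4 fingers matched that of Ikzf1 at 56, 57 and 58 of 69 bases, and their proteins at 22, 23 and 22 of 23 residues. The best finger of Ikzf5 matched at 33 bases and 6 residues. Over the whole coding sequences the longest run of identical bases between any pair of the 6 genes was 26, between Ikzf1 and Ikzf3. That is shorter than the 31 bases used here to compare transcripts, so no 31-base coding word was common to any pair of members.

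On the GRCm38 assembly Foxp3 lies on chromosome X from 7573644 to 7595245 on the plus strand, and Ikzf1 on chromosome 11 from 11685003 to 11772926, also on the plus strand. The other 4 lie on minus strands: Ikzf2 on chromosome 1 from 69531214 to 69687245, Ikzf3 on chromosome 11 from 98464902 to 98546031, Ikzf4 on chromosome 10 from 128630843 to 128645991 and Ikzf5 on chromosome 7 from 131388652 to 131410521.

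Foxp3, Ikzf2 and Ikzf4 fell in anti-CD4 tumours, to 47.5%, 32.6% and 32.2% of their PBS levels. Ikzf5 rose to 122% of its PBS level, and Ikzf1 and Ikzf3 did not pass the test. Among all 17940 genes tested, 418 (2.33%) were called lower and 529 (2.95%) higher at an edgeR adjusted p under 0.05, so 3 lower and 1 higher of 6 members stand against those shares. Under upper quartile scaling the calls over all genes were 325 lower and 179 higher, and the 4 members kept their directions and calls. The median log2 fold change was -1.35 over the members and -0.0 over all tested genes. In bulk tumours, fewer cells of a type and less RNA per cell cannot be told apart.

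Libraries held 30.75 to 41.93 M counts in the PBS group and 34.45 to 62.06 M in the anti-CD4 group, with means of 36.08 ± 4.03 and 46.4 ± 10.04 M (SD, n = 6; exact permutation p = 0.039). With the log2 of each library's total added as a covariate, the 4 member calls were lost, while the log2 fold changes were -0.96 for Foxp3, -1.53 for Ikzf2, -1.47 for Ikzf4 and 0.28 for Ikzf5 (edgeR adjusted p 0.108, 0.161, 0.202 and 0.256). That fit called 5 genes of all tested lower (0.0279%) and 0 higher, with 2193 at an unadjusted p under 0.05. After thinning every library to the lowest total, the 4 calls held. Cd4, the target of the antibody, fell from 6.31 ± 2.34 to 1.31 ± 0.498 CPM (SD, n = 6 each), by 2.26 on the log2 scale (SE 0.28, edgeR adjusted p = 0.00298), while Cd8a was at 4.57 ± 1.58 and 4.11 ± 2.36 CPM (adjusted p = 0.794). Of the mesothelial markers Msln was at 126 and 122 CPM in the PBS and anti-CD4 groups, while Krt18, Krt19, Calb2 and Upk3b were too low to be tested. Pdpn, which fibroblasts also express, was the only called gene of that list and rose from 27.2 ± 2.16 to 34.2 ± 1.81 CPM (SD, n = 6; log2 fold change 0.33, edgeR adjusted p = 0.0186).

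Foxp3 stood at 6.32, 8.22 and 12.5 CPM in PBS tumours, as the lowest, median and highest of 6, where CPM is the count scaled to library size (TMM). In anti-CD4 tumours the same 3 values were 3.23, 4.04 and 5.03 CPM. The groups did not overlap, PBS tumour 6 was the highest of all, and anti-CD4 tumours lay closer together than PBS tumours. The means were 8.58 ± 2.12 and 4.08 ± 0.599 CPM (SD, n = 6 each), and edgeR gave a log2 fold change of -1.08 ± 0.16 (SE) with an adjusted p of 0.00705. An exact permutation test, two-sided, gave p = 0.00216, the smallest possible with 6 tumours against 6. A complete separation in this direction occurred in 213 of the 17940 genes (1.19%).

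**Figure D1:**
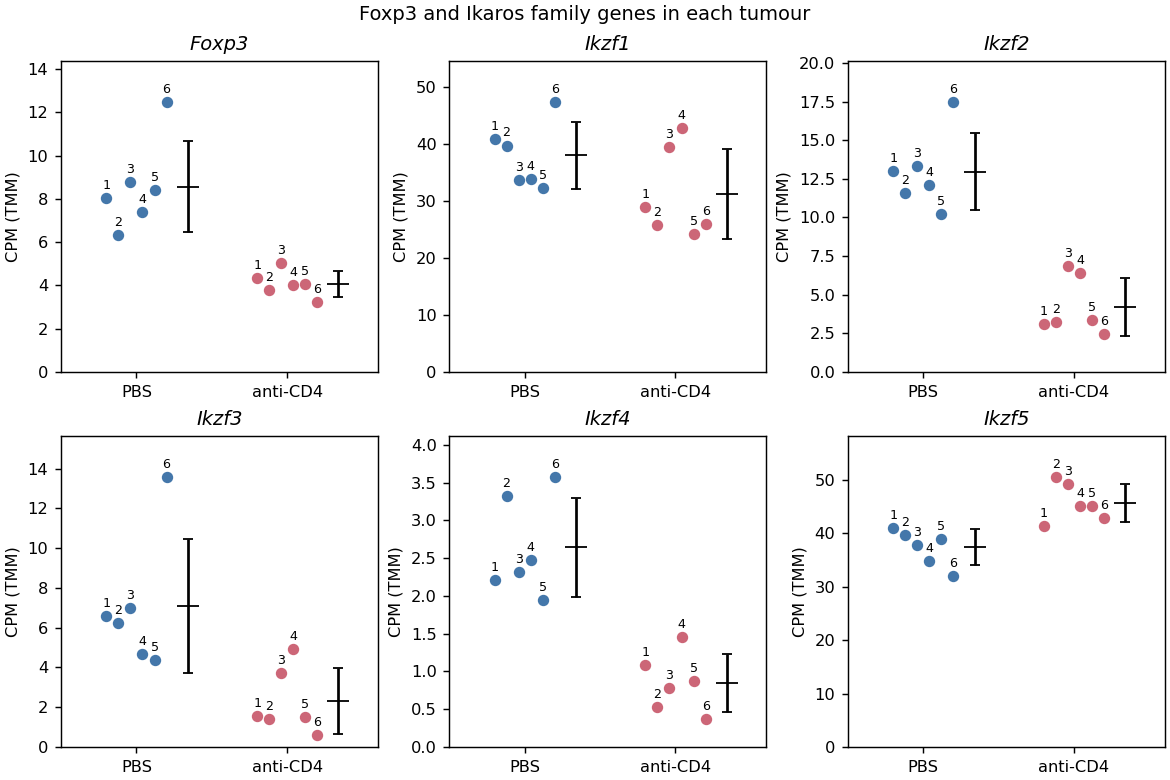
Normalised level (CPM, linear axis from 0) of each member in each tumour, PBS in blue and anti-CD4 in red, with the tumour number above each point and the mean and SD as a black bar. Foxp3, Ikzf2 and Ikzf4 show no overlap and lie lower in the anti-CD4 group, Ikzf5 shows none and lies higher, and anti-CD4 tumours 3 and 4 stand above the rest of their group for Ikzf1, Ikzf2 and Ikzf3.

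Foxp3 shares more of its sequence with other genes of the table (15.2% of its 31-base words) than Ikzf2 or Ikzf4, the other members that fell. The 3′ end of Foxp3 overlaps Ccdc22, a gene on the opposite strand, over 590 exonic bases. The sources used do not give the strand setting of the counting. Ccdc22 did not pass the test, with 28.8 ± 2.39 CPM under PBS against 28 ± 0.951 CPM under anti-CD4 (SD, n = 6; log2 fold change -0.04, edgeR adjusted p = 0.664). Of the distinct 31-base words of Foxp3 transcripts, 10.2% also occur in Ccdc22 and 5.01% in Ppp1r3f, another opposite-strand neighbour, which was at 65.5 and 47.5 CPM (adjusted p = 0.076). Flicr, a noncoding RNA on the Foxp3 strand that shares 16.2% of these words, is not a row of the table.

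The reads that Ccdc22 could give were estimated from its counts per exonic base times the 590 shared bases. The estimate takes coverage as even over all annotated exons and starts from the count already assigned to Ccdc22, so it is not a limit, and the true number could be smaller or larger. That product came to 39.7% to 77.8% of the Foxp3 count in PBS tumours and to 96.6% to 150% in anti-CD4 tumours, where 5 of 6 were at or above 100%. The Foxp3 counts themselves were 224.2 to 489.7 in PBS tumours and 151.4 to 201.3 in anti-CD4 tumours. The same estimate for Ppp1r3f, over 266 shared exonic bases, came to 27.4% to 54.7% of the Foxp3 count in PBS tumours and 51.5% to 81.5% in anti-CD4 tumours. Both neighbours together came to 67% to 124% in PBS tumours, at or above 100% in 4 of 6, and to 148% to 215% in anti-CD4 tumours. How many of the reads counted for Foxp3 came from it was not tested, in either group.

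**Figure D2:**
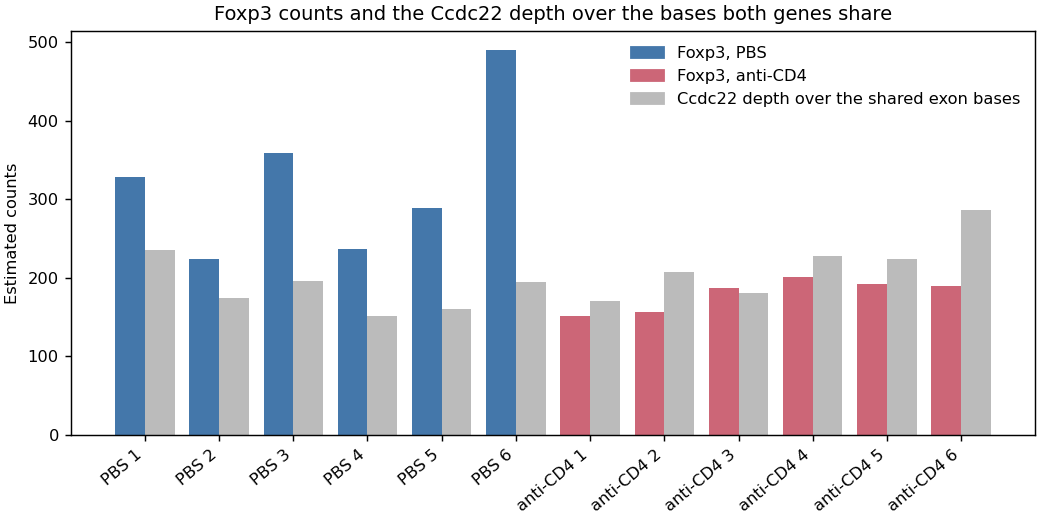
Estimated Foxp3 counts per tumour (coloured bars) beside the counts that the per-base depth of Ccdc22 could give over the exon bases both genes share (grey bars, Ppp1r3f not included), not scaled for library size. Foxp3 bars exceed grey bars in all 6 PBS tumours and in 1 of 6 anti-CD4 tumours, number 3.

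Ikzf2, the Helios gene, was at 10.2, 12.6 and 17.5 CPM in PBS tumours (lowest, median, highest) and at 2.43, 3.3 and 6.86 CPM in anti-CD4 tumours. No anti-CD4 tumour reached the lowest PBS tumour, although anti-CD4 tumours 3 and 4 (6.86 and 6.37 CPM) stood well above the other 4 of their group, which lay between 2.43 and 3.36 CPM. The means were 13.0 ± 2.48 and 4.22 ± 1.88 CPM (SD, n = 6 each). The log2 fold change was -1.62 (SE 0.25, edgeR adjusted p = 0.01, exact permutation p = 0.00216). Only 0.111% of its 31-base words occur in another gene of the table.

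Ikzf4, the Eos gene, was the least abundant member, at 1.95, 2.4 and 3.58 CPM in PBS tumours and 0.374, 0.825 and 1.45 CPM in anti-CD4 tumours. The groups did not overlap, and here anti-CD4 tumour 4 (1.45 CPM) stood highest while tumour 3 (0.78 CPM) was within the range of the rest. Its log2 fold change was -1.64 (SE 0.29, edgeR adjusted p = 0.0163, exact permutation p = 0.00216), from 2.64 ± 0.657 to 0.851 ± 0.389 CPM (SD, n = 6 each). Ikzf4 shares 0.768% of its words with other genes of the table.

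Ikzf3, the Aiolos gene, had an average change as large as those of Ikzf2 and Ikzf4 but a wider spread. It stood at 4.38, 6.42 and 13.6 CPM in PBS tumours and at 0.578, 1.54 and 4.91 CPM in anti-CD4 tumours. The groups overlapped, because anti-CD4 tumour 4 (4.91 CPM) lay above PBS tumours 4 and 5 (4.66 and 4.38 CPM), and PBS tumour 6 stood far above its group. The log2 fold change was -1.63 (SE 0.47, edgeR adjusted p = 0.0588), so Ikzf3 missed the threshold by a small margin, while the exact permutation p of its log2 CPM was 0.00649. Without anti-CD4 tumours 3 and 4 it was -2.49 (edgeR adjusted p = 0.00542), and without PBS tumour 1 or anti-CD4 tumour 4 it also passed.

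Ikzf1, the Ikaros gene and with Ikzf5 the most abundant member, was at 32.3, 36.8 and 47.4 CPM in PBS tumours and at 24.2, 27.4 and 42.8 CPM in anti-CD4 tumours. The groups overlapped through anti-CD4 tumours 3 and 4 (39.4 and 42.8 CPM), whereas the other 4 anti-CD4 tumours lay below every PBS tumour. Its log2 fold change, -0.28 (SE 0.15, edgeR adjusted p = 0.237, exact permutation p = 0.0974), did not pass. Without those tumours it was -0.53 (edgeR adjusted p = 0.0142). None of its 31-base words occurs in another gene.

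Ikzf5, the Pegasus gene, was at 32, 38.4 and 41.0 CPM in PBS tumours and at 41.4, 45.1 and 50.6 CPM in anti-CD4 tumours. The groups did not overlap, though the highest PBS and the lowest anti-CD4 tumour were almost level. Complete separation in this direction occurred in 347 of all tested genes (1.93%). Its log2 fold change was 0.29 (SE 0.07, edgeR adjusted p = 0.0358, exact permutation p = 0.00216), and the call was lost in 9 of the 12 fits that left out 1 tumour: PBS 2, 3, 4, 5 or 6, or anti-CD4 2, 3, 5 or 6. Across these 12 fits its log2 fold change ran from 0.25 to 0.32, with edgeR adjusted p from 0.019 to 0.101.

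The Ikzf5 count also rests on little sequence of its own. Pstk, a gene on the opposite strand that encodes a kinase of selenocysteine tRNA synthesis, overlaps Ikzf5 over 4652 exonic bases and shares 79.6% of its 31-base words. Pstk itself was at 26.2 ± 3.78 and 25.7 ± 1.47 CPM (SD, n = 6 each; log2 fold change -0.03, edgeR adjusted p = 0.839). Gm10356, a processed pseudogene, holds 16% of the words but was at 0.00407 and 0.0048 CPM. How reads of Ikzf5 and Pstk were divided was not tested.

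On the scale of CPM per kilobase of exon, levels of different genes can be compared roughly. The length takes all annotated exon bases of a gene, whichever transcripts were expressed. The place of Ikzf5 also depends on how its reads and those of Pstk were divided, which was not tested. The order of means in PBS tumours was Ikzf1 (6.57), Ikzf5 (6.54), Foxp3 (1.87), Ikzf2 (1.12), Ikzf3 (0.808) and Ikzf4 (0.441). Ikzf1 and Ikzf5 did not differ beyond their spread there, and Ikzf5 stood above Ikzf1 in every PBS tumour but number 6. In anti-CD4 tumours the same levels were 5.4 for Ikzf1, 7.99 for Ikzf5, 0.891 for Foxp3, 0.364 for Ikzf2, 0.261 for Ikzf3 and 0.142 for Ikzf4, where Ikzf5 stood above Ikzf1 in every tumour and the neighbours Ikzf2 and Ikzf3, and Ikzf3 and Ikzf4, lay within their spread of each other. On the counts as deposited Foxp3 took the third place in all 12 tumours, which in 5 of 6 anti-CD4 tumours rests on counts no larger than the Ccdc22 estimate. Ikzf3 lay above Ikzf2 in PBS tumour 6 and anti-CD4 tumour 4, and below Ikzf4 in anti-CD4 tumour 1.

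Differences between members were tested as the change in the log2 CPM difference within a tumour, over 15 pairs with p-values adjusted over the 15. Of these, 10 passed, including all 4 that set Ikzf1 against Foxp3, Ikzf2, Ikzf3 and Ikzf4. Foxp3 minus Ikzf1 changed by -0.74 from PBS to anti-CD4 tumours (adjusted exact permutation p = 0.00812), and Ikzf1 minus Ikzf2, Ikzf3 and Ikzf4 by 1.39, 1.51 and 1.36 (0.00464 each). All 5 pairs with Ikzf5 passed too, at -0.6 for Ikzf1 minus Ikzf5 and between -2.11 and -1.34 for the other 4 members minus Ikzf5. Foxp3 minus Ikzf2 changed by 0.65 on the counts as deposited (adjusted exact permutation p = 0.0325), and that call was lost without PBS tumour 2 or without anti-CD4 tumour 1, 2, 5 or 6. This order rests on the Foxp3 counts left in anti-CD4 tumours: with the reads Ccdc22 could give taken away, 5 of 6 go to 0 and Foxp3 would have the larger fall. Foxp3 and Ikzf3 differed by 0.77 (adjusted exact permutation p = 0.114) and Foxp3 and Ikzf4 by 0.62 (0.0767), and both passed without anti-CD4 tumour 4, at 1.06 and 0.8. No difference among Ikzf2, Ikzf3 and Ikzf4 passed, with Ikzf2 minus Ikzf3 at 0.12, Ikzf2 minus Ikzf4 at -0.03 and Ikzf3 minus Ikzf4 at -0.15 (adjusted exact permutation p = 0.742, 0.905 and 0.742). Leaving out 1 tumour at a time moved these from -0.06 to 0.26, -0.19 to 0.13 and -0.35 to -0.02.

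Each member was then set against markers of T cells and of all leukocytes, as its log2 CPM minus the mean log2 CPM of 14 T cell markers or of 14 markers common to leukocytes, giving 12 ratios with p-values adjusted over them. The T cell mean ran from 1.93 to 2.93 in PBS tumours and from -0.2 to 2.07 in anti-CD4 tumours, a difference of -1.39. The leukocyte mean ran from 5.37 to 6.05 and from 5.12 to 5.63, a difference of -0.38. Of the 14 T cell markers Cd2, Cd5 and Zap70 fell and none rose, and Cd3e was at -1.28 (edgeR adjusted p = 0.128). Of the 14 leukocyte markers Laptm5, Cytip, Arhgap30 and Vav1 fell and none rose, and Ptprc was at -0.55 (0.161).

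Relative to T cell markers, Foxp3 differed by 0.35, Ikzf2 by -0.3 and Ikzf4 by -0.27 on the log2 scale. None of the 3 passed (adjusted exact permutation p = 0.286, 0.127 and 0.276). The Foxp3 ratios use the counts as deposited, against which the Ccdc22 estimate came to 96.6% to 150% in anti-CD4 tumours. How these ratios stand without such reads was not tested. The Ikzf3 ratio was lower in anti-CD4 tumours (-0.42, 0.0357), a call lost without PBS tumour 1, 3, 4 or 6 or anti-CD4 tumour 1, 2 or 6. Ikzf1 and Ikzf5 were higher relative to T cell markers by 1.09 and 1.69 (0.00433 each). Both are made beyond T cells, and their ratios hold the -1.39 of the markers themselves. The Foxp3 ratio had the wider spread in anti-CD4 tumours, from -0.05 to 1.92 against 0.29 to 1.08 in PBS tumours. It passed without anti-CD4 tumour 4 (0.59, adjusted exact permutation p = 0.0404), and the Ikzf2 ratio passed without anti-CD4 tumour 6 (-0.39, 0.0422).

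Relative to leukocyte markers, Ikzf2, Ikzf3 and Ikzf4 were lower in anti-CD4 tumours, at -1.31, -1.43 and -1.28, and Ikzf5 was higher, at 0.68 (adjusted exact permutation p = 0.00433 each). Foxp3 was also lower on the counts as deposited, at -0.66 (0.0111). The Ikzf1 ratio to leukocyte markers kept within narrow limits, from -0.52 to -0.29 in PBS and from -0.52 to -0.21 in anti-CD4 tumours, a difference of 0.08 that did not pass (0.276).

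**Figure D3:**
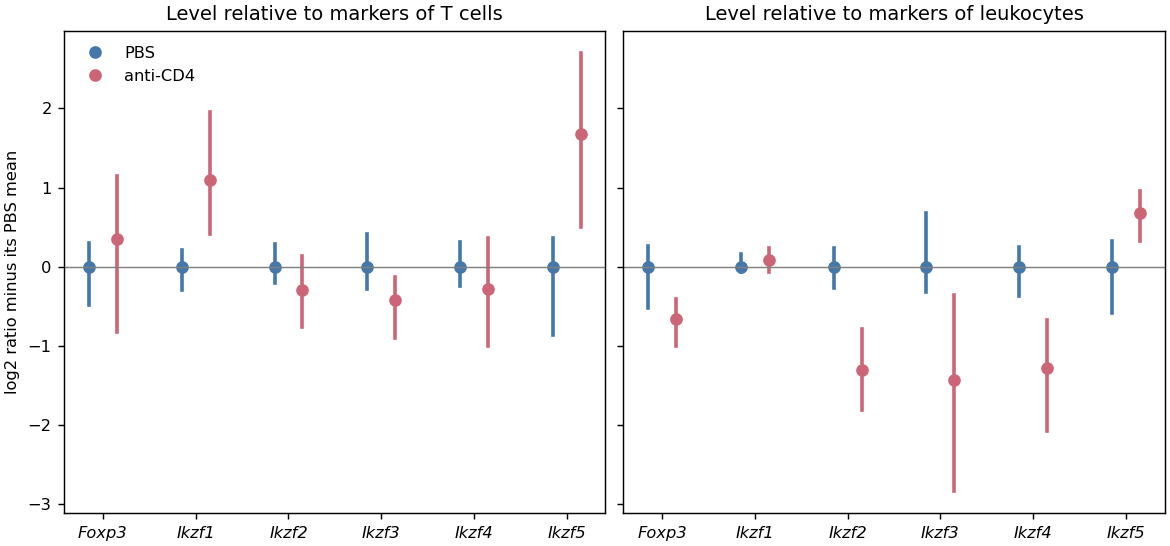
Log2 level of each member minus the mean of T cell markers (left) or leukocyte markers (right), shown relative to its PBS mean, with the group mean as a point and the lowest to highest tumour as a line (n = 6 each). Against T cell markers Ikzf1 and Ikzf5 lie higher in anti-CD4 tumours. Against leukocyte markers Ikzf2, Ikzf3 and Ikzf4 lie lower without overlap, Foxp3 lies lower with overlapping groups, and the Ikzf1 groups overlap.

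The relation of each member to the T cell marker mean was also examined inside each group. Among the 6 anti-CD4 tumours Pearson r was 0.98 for Ikzf3, 0.92 for Ikzf1 and Ikzf2, 0.8 for Ikzf4, 0.68 for Foxp3 and 0.21 for Ikzf5. Spearman rho ran from 0.94 for Ikzf3 down to 0.09 for Ikzf5. Over the 12 relations (6 genes, 2 groups) none passed adjustment, the smallest being Ikzf3 in anti-CD4 tumours (permutation p = 0.00556, adjusted 0.0667; rho p = 0.0167, adjusted 0.2).

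In PBS tumours r was 0.97 for Ikzf3, 0.93 for Ikzf1, 0.86 for Ikzf2, 0.77 for Ikzf4, 0.67 for Foxp3 and -0.47 for Ikzf5, with rho of 0.71, 0.77, 0.49, 0.6, 0.26 and 0.03. In both groups the tumours farthest from the median of the marker mean were numbers 4 and 6. Leaving them out left 4 tumours per group. It turned the Foxp3 value in PBS tumours to -0.62 and took the Ikzf4 value in anti-CD4 tumours to 0.21, so these relations rest on those tumours. The Foxp3 value in anti-CD4 tumours rose to 0.94, and the Ikzf5 value in PBS tumours turned to 0.46. The values of Ikzf3 became 0.82 in PBS and 0.93 in anti-CD4 tumours. All genes of a tumour share its library and its depth, and anti-CD4 tumour 6, lowest for T cell markers, also had the deepest library.

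**Figure D4:**
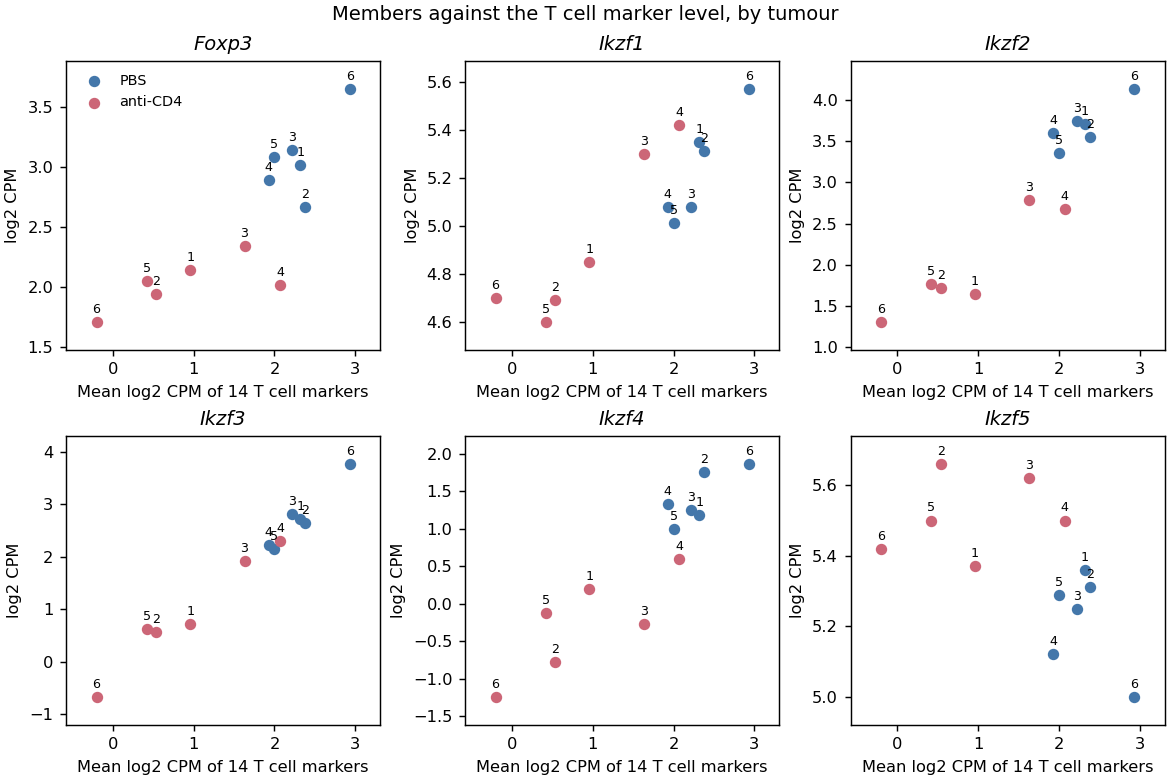
Log2 CPM of each member against the mean log2 CPM of 14 T cell markers in each tumour, PBS in blue and anti-CD4 in red, with tumour numbers. Ikzf3 follows the marker mean in both groups (r 0.97 and 0.98, n = 6 each), whereas Foxp3 in anti-CD4 tumour 4 stays low (4 CPM) although that tumour has the highest T cell marker mean of its group, 2.07.

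With group means removed, the members most alike across the 12 tumours were Ikzf2 and Ikzf3 (r = 0.95), followed by Ikzf1 with Ikzf2 (0.88) and Ikzf1 with Ikzf3 (0.87). Foxp3 was less close to Ikzf2 (0.61), Ikzf3 (0.65) and Ikzf4 (0.37). Within PBS tumours alone, however, Foxp3 with Ikzf2 was at 0.78 and Ikzf1 with Ikzf2 at 0.79. Within anti-CD4 tumours these 2 pairs were at 0.7 and 0.91. Ikzf5 lay between -0.35 and 0.05 with every other member. These Ikzf5 values pool unlike groups, running from -0.69 to -0.37 within PBS tumours and from -0.2 to 0.43 within anti-CD4 tumours. These values are descriptions, and the genes share their libraries.

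Among 13672 other genes, those most like Ikzf3 were Agap2 (0.99), the T cell kinase genes Lck (0.98) and Zap70 (0.97), and Bcl11b (0.98), a T lineage factor. Those most like Ikzf2 were Tbx21 (0.97), which encodes the type 1 lymphocyte factor T-bet, Fgl2 and Adgrg5 (0.96 each), and Bcl2a1d (0.95). Among the genes most like Ikzf1 were Cybb, the phagocyte oxidase gene, Ptprcap and H2-DMb2, all at 0.96. Among those most like Foxp3 were Tarbp2 (0.94), Shtn1 (0.91) and Phkg2 (0.9), and none of these 3 belongs to the lists of T cell genes used here. Ikzf4 was nearest to Dnase1l3 (0.92), Chdh (0.91), Cd300a (0.89) and Pfkfb3 (0.88). Of these, Chdh was at 0.55 within PBS tumours and at 0.98 within anti-CD4 tumours. For Ikzf5 the nearest were Tmed4 (0.9) and Rpl9, Rdh10 and Kbtbd2 (0.89 each). The genes named for each member were picked as the highest of so many values over 12 tumours. Whether such values exceed those of unrelated genes was not tested.

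Genes that work with the members were described next. Of 40 genes whose products bind Foxp3 or induce it, 1 was called lower and 1 higher (5% in all, against 5.28% of all genes tested), with a median log2 fold change of -0.01. Runx3, whose product binds Foxp3, fell from 18.2 ± 3.54 to 10.4 ± 2.58 CPM (SD, n = 6 each; -0.81, edgeR adjusted p = 0.0249). Smad4, which carries TGF-beta signals, rose by 0.2 (0.0337). The T cell factor genes Lef1 and Satb1 were at -0.67 and -1.03 without passing (0.0519 and 0.0601).

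Among 5 tested other forkhead genes, Foxp1, Foxp2, Foxp4, Foxo1 and Foxo3, none passed, and their median was -0.05. Of 20 genes for the NuRD complex and other corepressors that Ikaros proteins recruit, Cdk2ap1 rose (0.26, edgeR adjusted p = 0.0297) and none fell, with 18 of 20 values above 0 and a median of 0.07. Over all genes tested 49.9% of values were above 0, and the 1 call in 20 is a share of 5%, near that of all genes. The 5 genes of the cereblon ubiquitin ligase, through which thalidomide analogs degrade Ikaros and Aiolos in human cells, had a median of 0.08 and no call.

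Surface and effector genes of regulatory T cells moved in larger numbers, with 10 of 17 tested called lower, none higher and a median of -0.8. That is 58.8% called, against 5.28% of all genes tested called either way. Of the 17 values 15 were below 0. Nrp1 (0.25, edgeR adjusted p = 0.0837) and Lrrc32 (0.12, 0.677) lay above 0. Nt5e (-0.02) and Entpd1 (-0.14) did not pass either. Il2ra, the gene of the interleukin 2 receptor alpha chain and a target of Foxp3, fell from 14.1 ± 3.5 to 3.82 ± 1.36 CPM (SD, n = 6). Its log2 fold change was -1.89 (edgeR adjusted p = 0.00298). The chemokine receptor gene Ccr8 changed by -3.32, Izumo1r, the folate receptor 4 gene, by -2.76, and the costimulatory receptor gene Tnfrsf4 by -1.91 (edgeR adjusted p = 0.00298 each). Tigit was the least changed of those called, at -0.6 (0.0323).

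**Figure D5:**
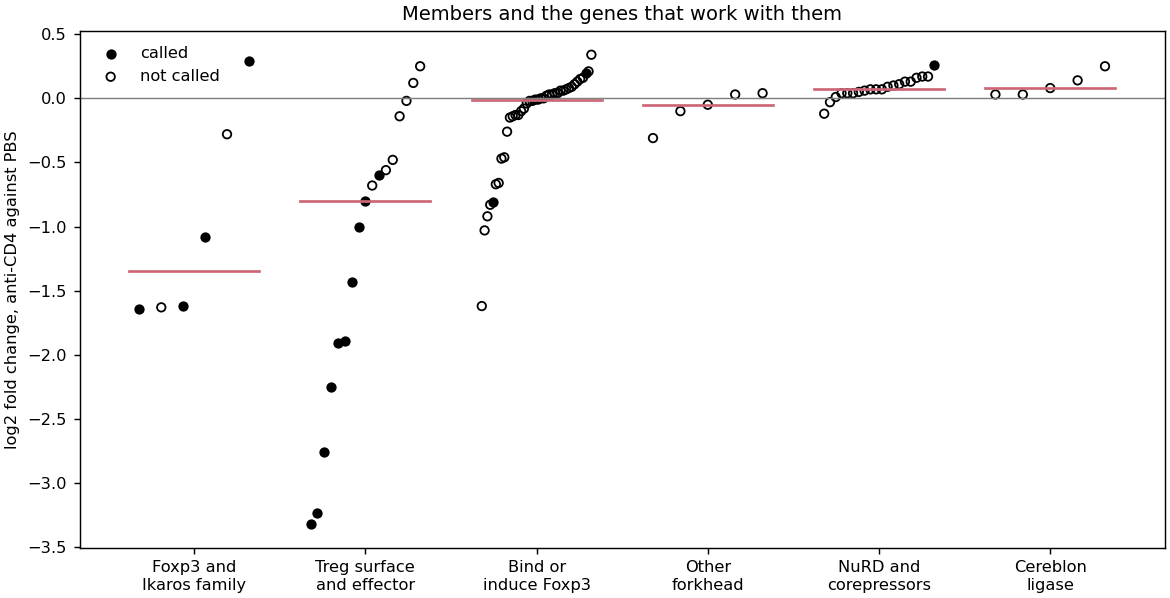
Log2 fold change, anti-CD4 against PBS, of the members and of 5 lists of related genes, with filled points for genes called by edgeR, open points for the rest and a red line at each list's median. The medians are -1.35 for the members, -0.8 for regulatory T cell genes and between -0.05 and 0.08 for the other 4 lists.

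Markers of other cell types, among them leukocytes that express Ikaros genes, moved as follows. Of 6 tested natural killer markers Klre1 fell and none rose, and the summed level of the list ran from 14.4 to 39.4 CPM in PBS and from 4.62 to 20.3 CPM in anti-CD4 tumours. Of 6 tested B cell markers Cd22 and Blk fell. Cd79a was at 1.95 and 1.93 CPM and Pax5 at 1.19 and 1.36 CPM in PBS and anti-CD4 tumours, without passing. Ms4a1 (log2 fold change -0.4) and Cd79b (-0.46) did not pass either. Over the 6 tested B cell markers the median was -0.43, with 5 values below 0. The summed levels of the list, 8.6 to 13 and 6.22 to 8.79 CPM, include Cd22 itself (means 4.46 and 2.54 CPM). Of 8 plasmacytoid dendritic cell markers Siglech, Ccr9, Klk1 and Spib fell and Tcf4 rose, and of 8 conventional dendritic cell markers Flt3, Zbtb46 and Ccr7 fell. None of 3 CD8 T cell, 5 plasma cell, 12 macrophage, 4 neutrophil or 6 endothelial markers passed, while of 8 fibroblast markers Pdgfra and Lum rose. Called shares were 16.7% (natural killer), 33.3% (B cell), 62.5% and 37.5% (plasmacytoid and conventional dendritic cell) and 25% (fibroblast), against 5.28% of all genes tested. The part of these cells in the levels of Ikzf1, Ikzf2, Ikzf3 and Ikzf4 was not tested.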

How the data were processed

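Per the labels' protocols, tumour RNA (12 samples) was sequenced as 100-base read pairs after depletion of rRNA and globin transcripts. Named in the submitters' processing notes are bcl2fastq 2.20.0.422, kallisto (no version) and GRCm38.p6. Values deposited by the authors are kallisto estimated counts for each gene name. Neither the annotation release nor the strand setting is given in the sources used here. Of 35999 names, 35973 matched GENCODE M21, the source of coordinates and transcript sequences.

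After rounding and filterByExpr (17940 genes kept), TMM scaling and the quasi-likelihood F test of edgeR 4.0.16 (R 4.3.3) were applied without covariates. A call required a Benjamini-Hochberg adjusted p under 0.05 over all genes tested. The SE is the log2 fold change over the square root of F, and log2 CPM used a prior count of 2. Single values were compared by exact two-sided permutation over 924 assignments. The edgeR steps were tested on simulated counts with known changes. Same-group libraries differed far beyond sampling noise (chi-square per degree of freedom 8.46 to 67.3 over 30 pairs). The coding sequence was the longest open reading frame of a protein-coding transcript.

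Alternatives were RLE and upper quartile scaling, DESeq2 1.42.0, limma 3.58.1 voom, other filters, a replicate block, depth adjustments, another prior count, and leaving out tumours. The members, lists, named genes and alternatives were chosen with earlier results of these data known, including that anti-CD4 tumours 3 and 4 stood apart for T cell genes. Named were the members, genes that overlap them, Cd4, Cd8a, Cd3e and Ptprc, up to 4 genes per list by smallest p with its called genes, and the 4 genes most like each member, of which some are not reported here. The estimate for Ppp1r3f was added after the results had been seen. Also named, outside that rule, were Satb1, Nrp1, Lrrc32, Nt5e, Entpd1, Cd79a, Pax5, Msln and Foxo3. Gm10356 and the mesothelial markers near 0 were chosen after their values were seen.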

Additional observations from a re-analysis of the deposited data

Results flagged for a closer look

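Ikzf3 in PBS tumour 6 lay far from the other PBS tumours, at 13.6 CPM, while the next highest stood at 6.99 CPM. The gap was 0.716 of the group's whole range, above Dixon's 95% critical value for 6 samples. It was the single flag among 12 such tests (6 genes, 2 groups), and chance flags about 1 in 20 groups. The same tumour was the highest of its group for Foxp3, Ikzf1, Ikzf2 and Ikzf4 and for the mean of T cell markers (2.93), and the lowest for Ikzf5.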

How the results depend on the processing

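Foxp3, Ikzf2 and Ikzf4 kept their calls in all 12 fits that left out 1 tumour, with log2 fold changes of -1.14 to -0.93, -1.81 to -1.5 and -1.87 to -1.47. Those fits gave 31 to 1480 genes lower and 29 to 1160 higher, 3 to 4 members lower and 0 to 1 higher; the fewest genes were left without anti-CD4 2 or 5 and the most without PBS 1. Ikzf5 ran from 0.25 to 0.32 and Ikzf3 from -2.02 to -1.34. Gene counts were 179 higher under upper quartile scaling, 251 lower and 272 higher with no filter, 1157 and 1337 with DESeq2, and 3200 and 2848 with limma voom. The log2 library total as a covariate left 5 genes lower and 0 higher, with 0 members in either direction, and the values -0.96, -1.53, -1.47 and 0.28 for Foxp3, Ikzf2, Ikzf4 and Ikzf5. The call of Ikzf3 was gained on thinning (-1.68), with DESeq2 (-1.62) and with voom (-2.05). Without anti-CD4 tumours 3 and 4, 705 genes were lower, 5 members were lower and 0 higher, with Ikzf1 at -0.53, Ikzf3 at -2.49 and Ikzf5 at 0.27. The Foxp3 ratio to T cells, on the counts as deposited, then passed (0.75, adjusted exact permutation p = 0.00816). The sign of Ikzf2 minus Ikzf4 turned with a prior count of 0.5 (0.01) and in 5 fits that left out 1 tumour (range -0.19 to 0.13), and that of Ikzf2 minus Ikzf3 in 1 (range -0.06 to 0.26); neither was ever called. Subtracting the reads Ccdc22 could give from Foxp3 left a fitted -7.13, which depends on the prior count and is no bound, since 5 anti-CD4 tumours went to 0. Same-numbered tumours did not deviate together (correlations -0.409 to 0.229), and no anti-CD4 and PBS tumour of 1 number correlated best with each other, so the numbers in the titles pair nothing that the data show. The replicate block left 14 genes lower and 19 higher, 1 member lower and 0 higher, with Ikzf2 called, Foxp3 at -1.05, Ikzf4 at -1.7 and Ikzf5 at 0.29 not called, and 0 ratios called, where 64 sign flips allow no p under 0.0312. Fits that left out tumours had fewer samples; otherwise the cause was not tested.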
